A study of Mus musculus with 2 samples.

Results

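Apoe and 9 other genes of cholesterol efflux were followed across the cell types of the inflamed mouse peritoneum. The set holds all rows of the deposited matrices that carry 1 of 10 gene symbols, and each symbol was found in both matrices, which list 31053 genes. Its members include the apolipoproteins Apoe, Apoc1 and Apoc2, the lipid transfer protein Pltp and the remodelling enzyme Lpcat3. The others are the transporters Abca1 and Abcg1, the nuclear receptors Nr1h3 and Nr1h2, and the ubiquitin ligase gene Mylip. The rule names all 10 by symbol and sets no limit on a measured value. The set was drawn up with earlier results of these data known. The study gave mice 1 mg zymosan, a yeast cell wall preparation, into the peritoneal cavity and took total peritoneal cells 3 days later, a time that its title places in the resolution phase of sterile inflammation. Cd36-/- mice carried LysM-Cre and floxed Cd36, and their fl/fl controls carried the floxed gene alone. Mice were 10 to 14 weeks old, and each group is 1 single-cell library made from a pool of 4 replicates. LysM-Cre is driven from the Lyz2 locus and is active in neutrophils and other myeloid cells as well as in macrophages, and the fl/fl mice carry no Cre. Cells were washed out with PBS and not sorted.

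Macrophages that take up dead cells and lipoproteins must dispose of cholesterol that they cannot degrade. The oxysterol receptors LXRα and LXRβ, encoded by Nr1h3 and Nr1h2, pair with retinoid X receptors and switch on export genes. Abca1 and Abcg1 are membrane pumps that hand cholesterol to lipid-poor apolipoproteins and to HDL, and secreted ApoE is an acceptor that macrophages make themselves. Cd36, the gene deleted here, encodes a scavenger receptor that takes up oxidised lipoproteins, fatty acids and cell debris.

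Apoe, Apoc1 and Apoc2 lie in 1 apolipoprotein cluster on the minus strand of chromosome 7 in the mm10 build. Apoe occupies chr7:19696109-19699188, Apoc1 chr7:19689481-19692660 and Apoc2 chr7:19671579-19677941. The pumps lie on chromosome 4 (Abca1, chr4:53030787-53159895, minus strand) and chromosome 17 (Abcg1, chr17:31057675-31117988, plus strand). Pltp lies at chr2:164839518-164857711 and Nr1h3 at chr2:91184061-91202834 on the minus strand, Lpcat3 at chr6:124663027-124704418 and Mylip at chr13:45389742-45412022 on the plus strand, and Nr1h2 at chr7:44549616-44553951 on the minus strand. All 10 are annotated as protein-coding. The upstream stretches below are shown because Apoe has the largest ratio of the members compared, Abca1 is the textbook LXR target, and Pltp differed in opposite directions between macrophage classes. Each is the 250 bases before the start site, 5′ to 3′ on the gene's strand, from RefSeq for GRCm38.p6: Apoe chr7:19699189-19699438, Abca1 chr4:53159896-53160145 and Pltp chr2:164857709-164857958, all on the minus strand. Capitals mark a match to the LXR element DR4.
Apoe: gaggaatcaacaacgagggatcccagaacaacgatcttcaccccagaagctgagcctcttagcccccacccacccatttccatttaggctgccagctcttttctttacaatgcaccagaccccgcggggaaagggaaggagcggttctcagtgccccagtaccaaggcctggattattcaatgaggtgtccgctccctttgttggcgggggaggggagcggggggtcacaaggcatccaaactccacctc
Abca1: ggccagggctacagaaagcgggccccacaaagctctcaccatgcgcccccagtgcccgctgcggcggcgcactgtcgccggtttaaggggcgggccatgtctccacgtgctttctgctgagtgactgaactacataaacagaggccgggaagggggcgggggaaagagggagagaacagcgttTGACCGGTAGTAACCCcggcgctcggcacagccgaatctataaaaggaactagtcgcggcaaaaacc
Pltp: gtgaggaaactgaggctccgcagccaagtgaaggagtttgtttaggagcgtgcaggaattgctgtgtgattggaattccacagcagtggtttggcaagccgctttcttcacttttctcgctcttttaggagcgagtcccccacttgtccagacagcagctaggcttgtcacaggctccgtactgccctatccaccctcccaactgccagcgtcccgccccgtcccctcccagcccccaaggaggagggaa
The element was searched on both strands as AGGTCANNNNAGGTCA, with up to 3 mismatches over its 12 fixed bases. RefSeq held 11 start sites for 8 of the 10 members. Of these 11 upstream stretches, only that of Abca1 held a match, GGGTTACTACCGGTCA on the opposite strand, 67 bases before the start site at its far end and with 3 mismatches. A match this loose is common: 6081 of 32851 promoters in the table hold one (18.5%), against 843 (2.57%) at up to 2 mismatches.

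The 2 libraries were of like depth. They held 116600732 UMIs (unique molecular identifiers, the count of distinct captured transcripts) in 16543 barcodes from Cd36-/- mice and 117238057 UMIs in 15537 barcodes from fl/fl mice. After filters, 14958 Cd36-/- and 13899 fl/fl cells were used, with medians of 6564 and 6878 UMIs. The libraries shared 383 barcode sequences, 294 of them among the cells used, and without these the Apoe ratio given below was 0.80 as well. Cells were gated by marker genes, and 97.3% and 97.1% of them found a gate. Macrophage markers gated 9863 Cd36-/- and 7669 fl/fl cells, and their summed level was 9118 against 8479 CPM in macrophages and 757 against 557 CPM in B cells (CPM, UMIs scaled to 1000000 UMIs of the gated class). A summed score of resident markers, among them Gata6 and Timd4, set apart large peritoneal macrophages (3991 and 3018 cells). The rest were split into MHC class II-high macrophages (1122 and 971 cells) and other macrophages (4750 and 3680 cells). These 3 are ranges of marker scores, not types: 9.73% of macrophages lie within 25% of the limit for the large peritoneal class and 10.5% of the rest within 25% of the limit for the MHC class II-high class. Cd36 itself stood at 172 CPM in Cd36-/- macrophages and 245 CPM in fl/fl macrophages. The libraries read the 3′ ends of transcripts, and whether those ends lie in the deleted part is not given, so the level does not check the deletion. Lyz2, the locus that carries Cre, stood at 17902 CPM in Cd36-/- macrophages and 29157 CPM in fl/fl macrophages. With 1 library per group there is no replicate and no test. The 95% intervals below are exact but take in only the error of counting UMIs, so whether a difference exceeds the spread between mice cannot be told.

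Apoe was the member that differed most among those abundant enough to compare. Cd36-/- macrophages held 258625 Apoe UMIs and fl/fl macrophages 130337, or 3181 CPM against 1826 CPM. The log2 ratio of Cd36-/- over fl/fl was 0.80 (0.79 to 0.81), the 7th highest of 4587 genes that reached 20 CPM in 1 library. Apoe was the 1 member of 8 compared that was at least 1.5-fold higher, and among all 4587 genes 0.24% were at least 1.5-fold higher and 0.392% at least 1.5-fold lower. The median log2 ratio was 0.15 over the 8 members and -0.01 over all genes. Of the 8, 6 were higher and 2 lower in Cd36-/- macrophages, while 46.6% of all genes were higher. In bulk sums of this kind, more cells with the transcript and more transcript per cell cannot be told apart, and the per-cell values below bear on that.

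**Figure D1:**
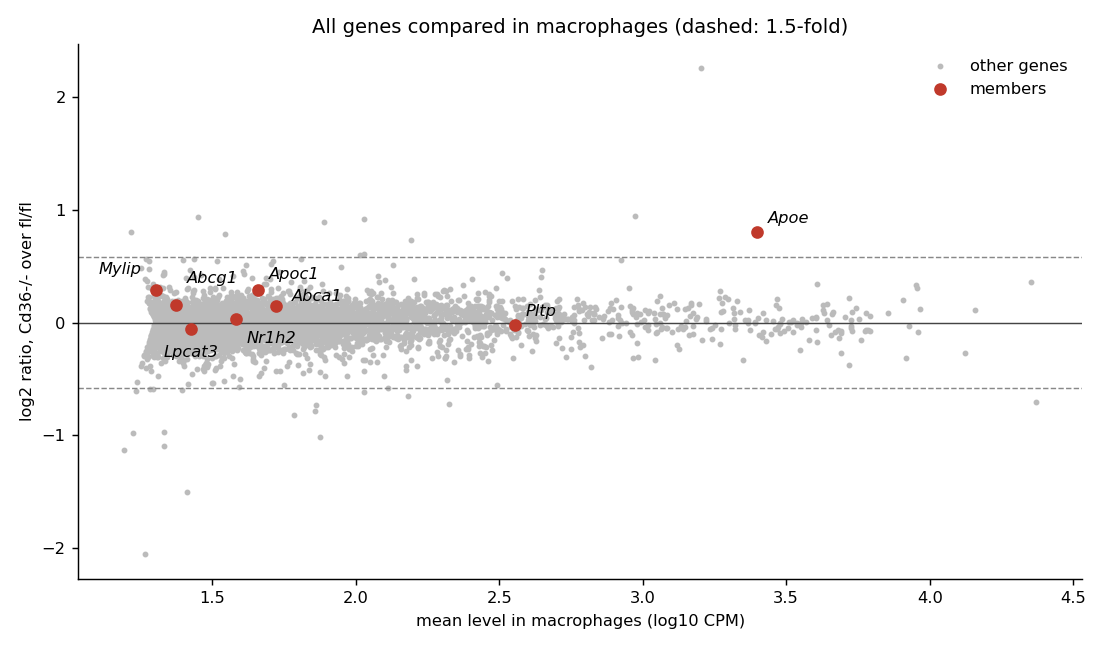
Log2 ratio of Cd36-/- over fl/fl against mean level (log10 CPM) for the 4587 genes compared in macrophages; each point is 1 gene, members are the large points and the dashed lines stand at 1.5-fold. Apoe lies at 0.80, and the other 7 members compared lie between -0.05 and 0.29.

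The excess was seen in each macrophage class and differed in size among them. Other macrophages had 2889 CPM in Cd36-/- mice and 1329 CPM in fl/fl mice (log2 1.12, 1.10 to 1.14). Large peritoneal macrophages had 3147 CPM in Cd36-/- mice and 2020 CPM in fl/fl mice (0.64, 0.62 to 0.66). MHC class II-high macrophages had the highest level in each library, 4664 CPM in Cd36-/- mice and 3408 CPM in fl/fl mice, and the smallest ratio (0.45, 0.43 to 0.47). The 3 intervals do not overlap, so the ratios differ by more than counting error. Among members from 20 CPM, Apoe was the 1 at least 1.5-fold apart in other and in large peritoneal macrophages, and none was in MHC class II-high macrophages. Below that limit, Apoc2 was 1.87-fold higher in other macrophages (93 and 44 UMIs) and 2.53-fold higher in large peritoneal macrophages (36 and 12 UMIs). At least 1.5-fold higher were 0.452% of all genes in other macrophages, 0.353% in large peritoneal macrophages and 0.829% in MHC class II-high macrophages, and at least 1.5-fold lower were 0.538%, 0.486% and 0.829%. In unsupervised clusters made without the members, Cd36, Lyz1 and Lyz2, Apoe was higher in the Cd36-/- cells of 9 of 9 macrophage clusters with at least 200 cells, with log2 ratios of 0.32 to 1.47. Those led by other macrophages alone ran from 0.59 to 1.47, so the ratio of that class is a mix. The cluster at 0.59 held 1498 Cd36-/- and 756 fl/fl cells. Smaller clusters led by macrophages stood at -0.07 (-0.22 to 0.08, in 72 Cd36-/- and 48 fl/fl cells), 0.97 and 1.08. Within 4 equal groups of macrophages by depth the log2 ratio was 0.54 to 0.83, and within 4 groups by mitochondrial share 0.56 to 0.92.

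Single cells showed where in the distribution the libraries parted. A Cd36-/- macrophage of the other class had a median of 20.1 Apoe UMIs per 10000 and an fl/fl one 6.49, a 3.10-fold difference. At the 10th percentile of that class the values were 4.57 and 0.705 (6.48-fold), and at the 90th percentile 63.9 and 34.6 (1.84-fold). The MHC class II-high class had the same shape, from 4.01-fold at the 10th percentile to 1.13-fold at the 90th, with medians of 34.9 and 19.3. In large peritoneal macrophages the fold stayed between 1.51 and 1.91 at the 5 percentiles taken, with medians of 22.2 and 14.7. By fold, the libraries thus parted most among the macrophages with little Apoe, and least among the MHC class II-high macrophages with the most. In UMIs per 10000, the gap in other macrophages was instead widest at the 90th percentile and narrowest at the 10th. The fl/fl value at that 10th percentile, 0.705, lies below the fl/fl B cell median of 1.21. It is near the floor of counting, so the 6.48-fold rests on few UMIs per cell. In that class 8.91% of fl/fl and 1.81% of Cd36-/- cells had no Apoe UMI. Macrophages without any Apoe UMI were 1.74% of the Cd36-/- ones and 6.70% of the fl/fl ones. With each cell thinned to 1500 UMIs, 87.4% of Cd36-/- and 70.0% of fl/fl macrophages had an Apoe UMI, with 310 and 242 shallower cells left out.

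**Figure D2:**
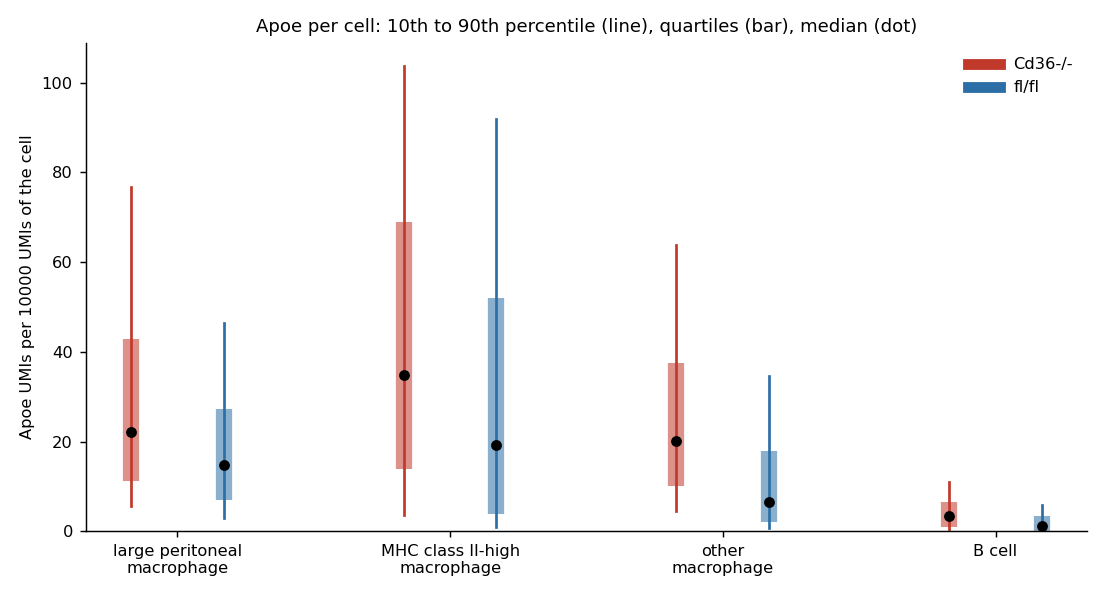
Apoe UMIs per 10000 UMIs of a cell in 3 macrophage classes and in B cells, Cd36-/- left of fl/fl; the line spans the 10th to 90th percentile, the bar the quartiles and the dot marks the median. By fold, the medians part most in other macrophages (20.1 against 6.49). By difference, they part most in MHC class II-high macrophages (34.9 against 19.3). B cells lie below the macrophages of their own library (medians 3.48 and 1.21).

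Lymphocytes carried Apoe UMIs too, and in the same direction. B cells had 442 CPM in Cd36-/- mice and 213 CPM in fl/fl mice (log2 1.05, 1.00 to 1.10), T cells 386 and 194 CPM (0.99, 0.82 to 1.16) and NK cells 465 and 223 CPM (1.06, 0.84 to 1.29). In B cells 0.783% of genes were at least 1.5-fold higher and 0.475% lower, in T cells 3.21% and 1.7%, and in NK cells 6.45% and 5.72%. After thinning, an Apoe UMI was found in 44.8% of Cd36-/- and 27.0% of fl/fl B cells, 43.5% and 23.3% of T cells and 49.7% and 26.9% of NK cells. Median depths were 3972 and 4525 UMIs in B cells, against 7944 and 8971 UMIs in macrophages. Free RNA in droplets brings UMIs of macrophage genes to all cells, so these levels were set against macrophage markers in the same lymphocytes. These markers also define the macrophage gate, so the gating selects against them in lymphocytes and for them in macrophages. Apoe is not a gate gene. How much of a gap between Apoe and the markers comes from this selection was not tested.

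The 10 macrophage markers stood in B cells at a median of 7.95% of their macrophage level for Cd36-/- and 6.48% for fl/fl, and over all 3 lymphocyte classes and both libraries the highest marker, Cd68 in Cd36-/- B cells, stood at 12.1%. Apoe stood at 13.9% and 11.7% of its macrophage level in B cells, 12.1% and 10.7% in T cells and 14.6% and 12.2% in NK cells. Per UMI of the 3 C1q genes, B cells held 0.723 and 0.492 Apoe UMIs, where macrophages held 0.432 and 0.270. All 10 macrophage markers were also higher in the Cd36-/- B cells (median log2 0.35), beside a larger share of macrophages among the cells, 65.9% against 55.2%. Per cell, B cells carried 2.22 and 1.249 Apoe UMIs, T cells 1.22 and 0.74 and NK cells 1.12 and 0.63. The lowest 25% of other macrophages by Apoe level carried 4.74 Apoe UMIs per cell in Cd36-/- mice and 0.983 in fl/fl mice, and the lowest 25% of large peritoneal macrophages 5.23 and 3.38. The lowest 25% of MHC class II-high macrophages carried 4.18 and 1.247. These cells were picked by their low Apoe level and are deeper than lymphocytes, with median depths of 8200 and 10132 UMIs in the lowest 25% of other macrophages. With the lymphocyte level subtracted, the log2 ratio in all macrophages was 0.77. The part of free RNA in the low end of the per-cell distribution, and whether lymphocytes express Apoe, was not tested.

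**Figure D3:**
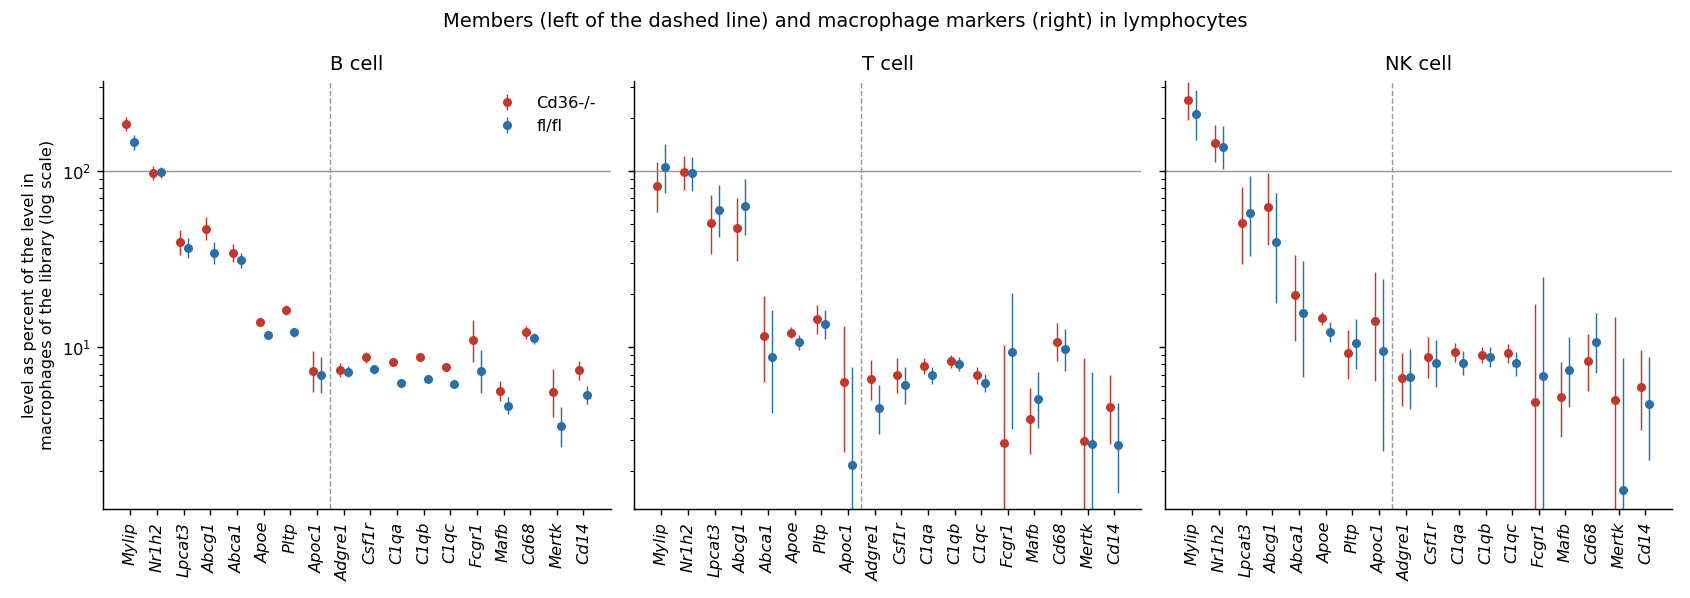
Level in B, T and NK cells as a percent of the level in macrophages of the same library (log scale), members left of the dashed line and 10 macrophage markers right of it, with 95% counting intervals, some of which run below the axis. Apoe sits between 10.7% and 14.6%, above the median of the markers, and Nr1h2 and Mylip sit near or above 100%.

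Among other cells, type 2 conventional dendritic cells had less Apoe than lymphocytes by CPM. They stood at 269 CPM (201 UMIs in 103 Cd36-/- cells) and 130 CPM (203 UMIs in 186 fl/fl cells). Their median depths were 6941 and 8508 UMIs. Cells gated as neutrophils were few and shallow, with medians of 720 and 911 UMIs, and had 83 Apoe UMIs in 80 Cd36-/- cells and 81 in 120 fl/fl cells, 1182 and 680 CPM. By gate and CPM, MHC class II-high macrophages stood highest in both libraries, then large peritoneal and other macrophages. Neutrophils, lymphocytes and type 2 dendritic cells followed, in that order. Type 1 conventional dendritic cells, 28 and 27 cells, are left out of it and stood at 253 and 99.05 CPM. Per cell, neutrophils held fewer Apoe UMIs than B cells (2.22 and 1.249) and T cells (1.22 and 0.74) in both libraries. Their place above B and T cells thus held by CPM only. Against NK cells (1.12 and 0.63) they held fewer in Cd36-/- and more in fl/fl mice. The part of free RNA in these UMIs was not tested. Within the lymphocytes, NK and B cells of Cd36-/- mice, and all 3 classes of fl/fl mice, did not differ beyond their intervals. With classes taken from unsupervised clusters, the log2 ratio of MHC class II-high over large peritoneal macrophages was 0.20 in Cd36-/- and 0.47 in fl/fl cells, against 0.57 and 0.75 with the gates. Single clusters did not keep the order of the gates throughout. Among macrophage clusters with at least 200 cells, that of MHC class II-high cells had 3597 CPM (Cd36-/-) and 2873 CPM (fl/fl). Those led by large peritoneal macrophages ranged from 1459 to 5013 CPM and from 1098 to 2847 CPM. Those led by other macrophages ranged from 1528 to 4578 CPM and from 928 to 3047 CPM. Macrophages held 95.8% of all Apoe UMIs of the Cd36-/- cells and 94.2% of those of the fl/fl cells. Of the UMIs of all genes they held 78.1% and 67.7%.

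Apoc1, a small apolipoprotein that inhibits lipid transfer, was a gene of large peritoneal macrophages. They held 101 CPM in Cd36-/- mice and 75.8 CPM in fl/fl mice (log2 0.42, 0.33 to 0.50). MHC class II-high macrophages held 21.7 and 23.4 CPM and other macrophages 19.7 and 21.6 CPM, with both intervals spanning 0. Over all macrophages Apoc1 stood at 50.1 CPM in Cd36-/- mice and 41.1 CPM in fl/fl mice (0.29, 0.22 to 0.36). Within 4 groups by depth this ratio was 0.02 to 0.34. Within 4 groups by mitochondrial share it ran from -0.23 in the lowest to 0.66 in the highest, and 3 of 4 were higher. Among macrophage clusters with at least 200 cells it ran from -0.48 (led by other macrophages) to 0.78 (led by large peritoneal macrophages). Apoc2, the cofactor of lipoprotein lipase, was scarce: 150 UMIs were counted in Cd36-/- macrophages and 72 in fl/fl macrophages, 1.84 and 1.01 CPM. Its log2 ratio was 0.87 (0.46 to 1.30), but it lay below the 20 CPM set for comparison. An annotated transcript of Gm44805 overlaps Apoc2 exons on the same strand, so its reads may be split. In T cells of Cd36-/- mice 0 UMIs of Apoc2 were counted, which allows a level of up to 1.37 CPM (3 counts in the class total).

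**Figure D4:**
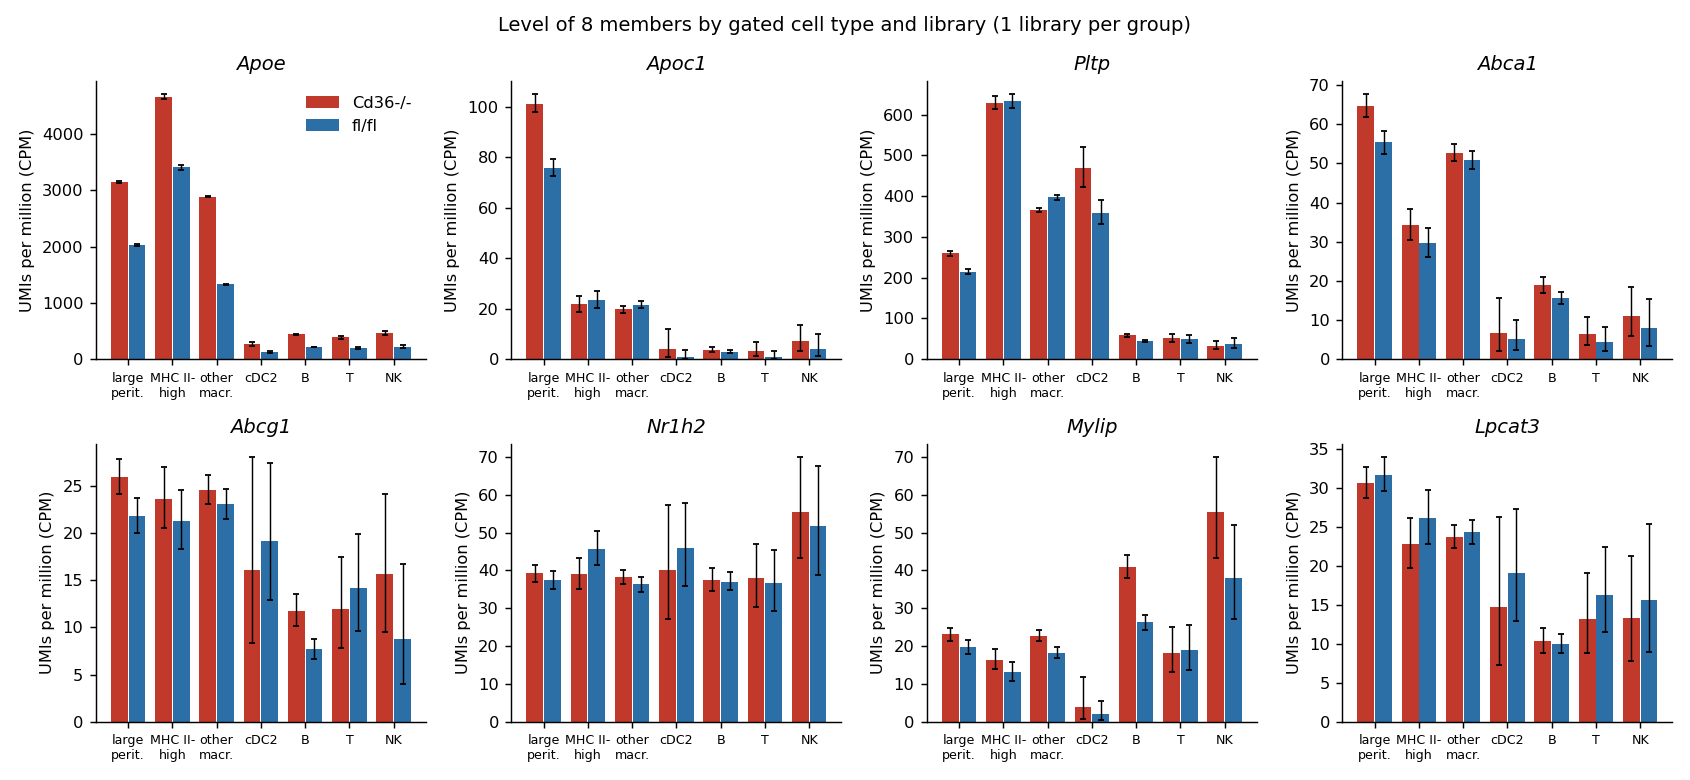
Level (CPM) of 8 members by gated cell type, Cd36-/- left of fl/fl, with exact 95% Poisson intervals; each bar is 1 library. Apoc1 is highest in large peritoneal macrophages (101 and 75.8 CPM), Pltp in MHC class II-high macrophages (630 and 633 CPM), and Mylip in NK and B cells.

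Pltp encodes phospholipid transfer protein, which moves phospholipid between lipoproteins. Its level over all macrophages was 356 CPM in Cd36-/- mice and 360 CPM in fl/fl mice (log2 -0.02, -0.04 to 0.01). The classes did not move alike. In large peritoneal macrophages it was higher, 259 CPM in Cd36-/- mice and 215 CPM in fl/fl mice (0.27, 0.22 to 0.32). In other macrophages it was lower, 366 and 397 CPM (-0.12, -0.15 to -0.08). MHC class II-high macrophages had the highest level, 630 and 633 CPM (-0.01, -0.06 to 0.05). Unlike Apoe, Pltp was also high in type 2 conventional dendritic cells, 469 CPM in Cd36-/- mice and 360 CPM in fl/fl mice (0.38, 0.19 to 0.58). In B cells it stood at 58.1 and 44.0 CPM, 16.3% and 12.2% of the macrophage level. Pltp shares exon sequence with Ctsa on the opposite strand, and whether the counting used strand is not given in the sources used here.

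The pumps differed little. Abca1 stood at 55.1 CPM in Cd36-/- macrophages and 49.9 CPM in fl/fl macrophages (log2 0.14, 0.08 to 0.21). In large peritoneal macrophages it stood at 64.7 and 55.4 CPM (0.23, 0.13 to 0.33), in MHC class II-high macrophages at 34.3 and 29.6 CPM (0.21, -0.03 to 0.45) and in other macrophages at 52.7 and 50.9 CPM (0.05, -0.04 to 0.14). Only the first of these intervals lies above 0. Abcg1 stood at 24.97 CPM in Cd36-/- macrophages and 22.4 CPM in fl/fl macrophages (0.16, 0.06 to 0.25). In large peritoneal macrophages its log2 ratio was 0.25 (0.09 to 0.41), in MHC class II-high macrophages 0.15 (-0.14 to 0.44) and in other macrophages 0.10 (-0.04 to 0.23). Abca1 ranked 532nd and Abcg1 420th of the 4587 genes by ratio. Abca1 in B cells was at 34.2% and 31.1% of its macrophage level, well above the range of the macrophage markers there.

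Nr1h2 and Mylip were found at like or higher levels in lymphocytes, while Nr1h3 was mostly in macrophages. Nr1h2 stood at 38.7 and 37.9 CPM in macrophages (log2 0.03, -0.04 to 0.10), 37.5 and 37.1 CPM in B cells and 37.96 and 36.6 CPM in T cells. In MHC class II-high macrophages it was lower in Cd36-/- mice, 38.9 against 45.8 CPM (-0.23, -0.45 to -0.02). Nr1h3, the LXR of macrophages and liver, was below the limit at 5.72 and 5.34 CPM in macrophages (465 and 381 UMIs), and stood at 0.739 and 0.264 CPM in B cells. Macrophages held 95.1% of its UMIs in Cd36-/- and 93.8% in fl/fl cells, beside 78.1% and 67.7% of the UMIs of all genes. Mylip encodes the ligase Idol, which marks the LDL receptor for degradation and is an LXR target. It stood at 22.2 CPM in Cd36-/- macrophages and 18.1 CPM in fl/fl macrophages (0.29, 0.19 to 0.39), with ratios of 0.23 in large peritoneal and 0.32 in other macrophages. B cells held more of it, 41.0 CPM in Cd36-/- mice and 26.3 CPM in fl/fl mice (0.64, 0.48 to 0.79), and with Apoe it was 1 of 2 members at least 1.5-fold higher among the 4 that reached 20 CPM there, where 0.783% of 4214 genes were. Below that limit Abcg1 (1.53-fold) and Nr1h3 (2.79-fold, on 12 and 7 UMIs) were past 1.5-fold too, and Apoc2 had 2 UMIs in each library. NK cells held 55.5 and 38.1 CPM (0.54, -0.04 to 1.15) and T cells 18.3 and 19.0 CPM. Lpcat3, which loads polyunsaturated chains into phospholipids, stood at 26.2 and 27.2 CPM in macrophages (-0.05, -0.14 to 0.04). Exons of Lpcat3 and Emg1 overlap on opposite strands.

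**Figure D5:**
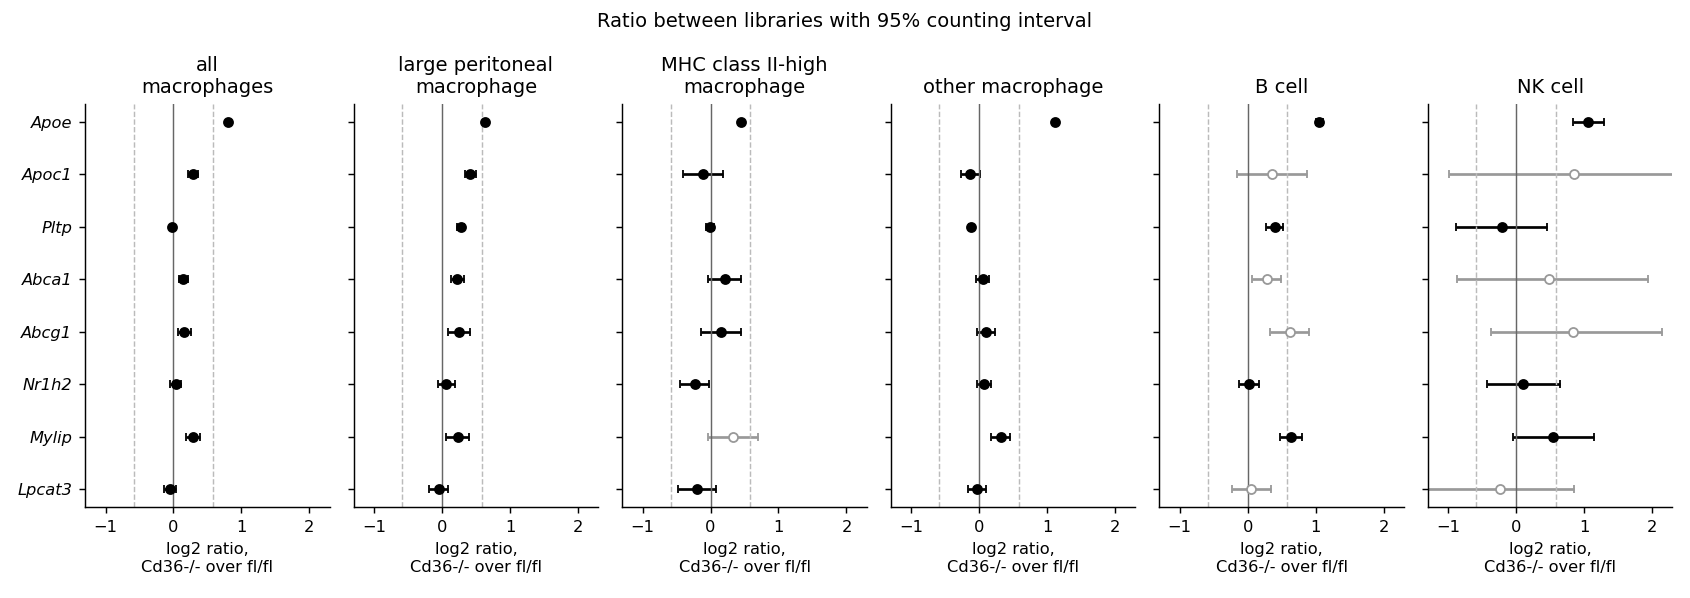
Log2 ratio of Cd36-/- over fl/fl for 8 members in 6 cell classes, with exact 95% counting intervals; open grey points lie below 20 CPM in both libraries, and the dashed lines stand at 1.5-fold. Apoe lies right of 0 in each class shown, Pltp lies on both sides of 0 (0.27 and -0.12), and Mylip reaches 0.64 in B cells.

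Of the other members, Apoc1 went with Apoe from cell to cell in each macrophage class. Each macrophage class was split by its own Apoe level and the top 25% of cells set against the bottom 25%, in each library, which gave 6 comparisons per gene. Apoc1 was higher in the top 25% in 6 of 6 (log2 0.91 to 2.18). In large peritoneal macrophages it stood at 190 CPM in the top and 49.0 CPM in the bottom 25% of Cd36-/- cells, and at 134 and 44.5 CPM in fl/fl cells. Pltp was higher in the top 25% of large peritoneal macrophages (1.10 in Cd36-/- and 0.95 in fl/fl cells) and of other macrophages (0.76 and 0.15). It was lower in the top 25% of MHC class II-high macrophages (-0.40 and -0.23). Abcg1 was lower in the top 25% in 6 of 6, with intervals below 0 in 2 (lowest -0.71, in large peritoneal macrophages of Cd36-/- mice). Nr1h2 lay between -0.0021 and 0.22 with every interval spanning 0. Median depth differed by at most 1.20-fold between top and bottom in a class, 6660 against 7981 UMIs in Cd36-/- large peritoneal macrophages.

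Over 6 cell classes in 2 libraries (12 points, which share library and depth in pairs and sixes), the genes whose log2 level was most like that of Apoe were Iah1 (r = 0.980), Asah1 (0.977), Fam213b (0.967), C1qb (0.967), Pla2g7 (0.967), Nadk (0.967), Pilrb2 (0.965) and Taldo1 (0.965). Asah1 encodes acid ceramidase, C1qb a complement subunit (a marker of the macrophage gate) and Pla2g7 a lipoprotein-associated phospholipase. Their own ratios in macrophages were smaller than that of Apoe, 0.18 for Asah1, 0.15 for C1qb and 0.21 for Pla2g7. Of the members, Pltp came 137th of 6177 genes (0.936), and r was 0.901 for Abcg1, 0.871 for Apoc1, 0.853 for Abca1, 0.827 for Lpcat3, -0.14 for Nr1h2 and -0.52 for Mylip. These values rank the contrast between macrophages and lymphocytes and carry no test.

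The rest of the pathway was followed in 7 lists. Over all macrophages, none of their genes that reached 20 CPM in 1 library was 1.5-fold apart in either direction. The other genes of the lists were not compared. Lpl, Lipa, Trem2 and Scarb1 each stand in 2 lists. Of 14 other LXR targets 8 were compared, of which 3 were higher and 5 lower in Cd36-/- macrophages (median log2 -0.09, against -0.01 for all genes). Mertk, a receptor for dead cells that is also among the markers of the macrophage gate, stood at 46.3 CPM in Cd36-/- and 62.5 CPM in fl/fl macrophages (-0.43). Cd5l, a secreted survival factor, stood at 949 and 857 CPM (0.15) and lipoprotein lipase, Lpl, at 489 and 438 CPM (0.16). In large peritoneal macrophages Lpl was at 377 and 271 CPM (0.48).

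Of 13 LXR partners, corepressors and coactivators 11 were compared, of which 2 were higher and 9 lower (median -0.11). They included the partner receptor Rxra (33.1 against 37.3 CPM, -0.17) and the corepressor subunits Ncor1 (82.3 against 92.3 CPM, -0.16) and Gps2 (38.1 against 43.6 CPM, -0.19). Of 14 cholesterol trafficking genes 9 were compared, of which 4 were higher and 5 lower (median -0.01). Plin2, the coat of lipid droplets, was lower (246 against 305 CPM, -0.31), while the lysosomal cholesterol carrier Npc2 (1062 against 982 CPM, 0.11) and the acid lipase Lipa (86.0 against 77.7 CPM, 0.15) were higher. Plin2 was lower in all 3 macrophage classes, most in MHC class II-high macrophages (257 against 353 CPM, -0.46).

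Of 16 cholesterol synthesis genes only Insig1 (25.9 against 21.4 CPM, 0.27) and Srebf2 (19.7 against 22.1 CPM, -0.16), which control that pathway, reached the limit. Of 10 lipoprotein receptors 7 were compared, of which 3 were higher and 4 lower (median -0.08), among them Lsr (16.4 against 22.1 CPM, -0.43), Apobr (28.1 against 32.4 CPM, -0.20) and Lrp1 (238 against 252 CPM, -0.08). Of 12 genes of lipid-associated macrophages 10 were compared, of which 8 were higher and 2 lower (median 0.11), led by the tetraspanin Cd63 (50.01 against 41.7 CPM, 0.26), the fatty acid carrier Fabp5 (534 against 467 CPM, 0.19) and Lpl. Single classes held genes of this list past 1.5-fold in both directions. Fabp5 was higher in MHC class II-high macrophages (242 against 152 CPM, 0.68). Spp1 was lower in large peritoneal macrophages (26.7 against 42.8 CPM, -0.68). Of 9 transcription factors tied to Apoe or lipid sensing 5 were compared, of which 3 were higher and 2 lower (median 0.02). Maf was lower (130 against 170 CPM, -0.38), and Cebpb was at 1675 and 1655 CPM (0.02).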

How the data were processed

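Single-cell 3′ libraries (10x Genomics v2, per the labels' protocols) were made from 2 pools of peritoneal cells. The authors deposited unnormalized UMI counts, 1 matrix a library. These were made with Cell Ranger on mm10, per the submitters' processing notes, and the file headers give software version 3.0.0. Its parameters are not given in the sources used here. The barcodes as deposited hold at least 500 UMIs.

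Cells with at least 200 genes and at most 10% mitochondrial UMIs were kept. Scrublet (scanpy 1.11.5) marked 6.51% of Cd36-/- and 5.66% of fl/fl cells as doublets, which were left out. A cell was gated to the lineage with the highest share of markers detected, from a share of 0.3 with a lead of 0.1. Macrophages with 32 UMIs per 10000 of the large peritoneal markers formed that class, and of the rest those with 256 per 10000 of the MHC class II markers formed the next. UMIs were summed per class and library and divided by the class total. Ratios carry exact conditional binomial intervals and levels exact Poisson intervals, at 95%. No interval covers variation between mice. Genes were compared from 20 CPM in 1 library. The ratio calculation was tested on simulated counts. Gene positions are from GENCODE M21.

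All 10 members are named. From each list, the up to 3 genes whose interval in macrophages lies farthest from a ratio of 1 are named, and the 8 genes most like Apoe by Pearson r of log2(CPM + 1), gene models without a name, Cd36, lysozyme, mitochondrial, ribosomal and immunoglobulin genes left out. Mylip in B cells and Lpl, Plin2, Fabp5 and Spp1 by class are named after their values were seen. A gene that the rule names among the transcription factors is not reported here. The members and lists were chosen with earlier results of these data known.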

Additional observations from a re-analysis of the deposited data

Results flagged for a closer look

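Pltp differed in direction between cell classes under the same comparison, and the difference was not tested, since each group is 1 library. Its log2 ratio of Cd36-/- over fl/fl was 0.274 in large peritoneal macrophages and -0.117 in other macrophages. It was -0.117 in other macrophages and 0.401 in B cells, where Pltp stood at 16.3% and 12.2% of its macrophage level and macrophage markers at medians of 7.95% and 6.48%.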

How the results depend on the processing

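No paired analysis was possible because each group is 1 pooled library with no replicate number. None of the alternatives reversed a called difference, and Apoe was the 1 member past 1.5-fold among those compared in macrophages under each of them. The Apoe log2 ratio in macrophages was 0.79 with doublets kept, 0.79 without the 50 highest genes in the total, 0.81 with the median ratio set to 0, 0.73 as a mean over cells, 0.73 with thinned cells and 0.77 with free RNA subtracted. The log2 ratio of MHC class II-high over large peritoneal macrophages in Apoe level was 0.57 in Cd36-/- cells, and 0.53 with doublets kept, 0.20 with unsupervised clusters, 0.60 with a stricter gate, 0.50 as a mean over cells, 0.49 with thinned cells and 0.64 with free RNA subtracted. In fl/fl cells it was 0.75, and 0.72 with doublets kept, 0.47 with clusters, 0.79 with a stricter gate, 0.80 with thinned cells and 0.82 with free RNA subtracted. The cause was not tested. Of 460 values of single members, 421 moved by less than their counting interval, and of 46 values of the Apoe ratio, its level across classes and the count of members, 29 did and 17, given above, did not. Leaving out barcodes that both libraries share was chosen after seeing the data. Free RNA could be subtracted for 3 members only, those at no more than 0.2 of their macrophage level in lymphocytes. Without a call, Pltp in MHC class II-high macrophages ranged from -0.17 to 0.27 and Abca1 there from -0.30 to 0.28. The depth limits Apoc2 and Nr1h3, and each member in NK and T cells.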
